A study of Homo sapiens with 12 samples.

Results

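Interferon-stimulated genes are the genes that a cell switches on when type I, II or III interferon reaches its surface receptors, and they include the sensors, transcription factors and antiviral effectors of innate immunity. The set described here is a list of 38 such genes, taken by symbol from the count tables, in which all 38 were found among 60835 gene symbols. They were followed in LNCaP cells, an established human prostate cancer line that depends on the androgen receptor and on FOXA1, a pioneer transcription factor of luminal prostate cells. FOXA1 and TRIM28, a corepressor that recruits heterochromatin to KRAB zinc finger target sites and endogenous retroviruses, were each depleted with short hairpin RNA. The study set each knockdown against its own negative control to find genes regulated by either protein.

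The 12 poly(A) RNA-seq libraries fall into 4 groups of 3 biological replicates, all in the same cell line and under the same batch label. The FOXA1 controls received control shRNA and are labelled WT-FOXA1, and the FOXA1 knockdown received shRNA-FOXA1. The TRIM28 controls also received control shRNA and are labelled WT-TRIM28, and the TRIM28 knockdown received shRNA-TRIM28. No group was given interferon or virus, per the labels. The hairpin sequences, the number of hairpins per gene, the time after their delivery and whether cells were selected or cloned go unstated in the labels. A hairpin effect on a gene other than the target, or a response to the hairpin itself, cannot be told apart from the effect of the knockdown in a design with 1 knockdown arm per gene.

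Double-stranded RNA in the cytosol is bound by sensors of the RIG-I family, which relay through MAVS to the factors IRF3 and IRF7 and so to interferon-beta. Secreted interferon acts through receptors joined to the kinases JAK1 and TYK2, which phosphorylate transcription factors of the STAT family. A complex that holds STAT2 and IRF9 binds the interferon-stimulated response element in target promoters, and STAT dimers bind the gamma-activated site. Loss of TRIM28 is known in some cell types to derepress retroviral sequence that can feed these sensors, and LNCaP cells are known for a poor interferon response with low JAK1.

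The response element itself is shown first, for members whose expression is described below, because it is the sequence that most of the set shares. Promoter windows from RefSeq (GRCh38.p14, 250 bases before to 50 after the start) were on hand for 30 of the 38 members, in 41 windows. DHX58, IRF7, IFIT2, OAS2, OASL, MX2, USP18 and TRIM22 were not among them. Searched on both strands as GAAA, any 2 bases, GAAA, the element occurred in 24 of 41 member windows (58.5%) against 3.57% of all 35116 windows of that length. By gene it occurred in 20 of 30 members. A gamma-activated site, searched as TTCNNNGAA, occurred in 11 of 41 member windows (26.8%) against 7.66% of all windows, and 10 of 30 members carried it. The following 30-base stretches are printed 5′ to 3′ on the strand of the gene with the matched element in capitals, overlapping matches joined and a match to the other strand shown as its complement, TTTC. They end between 1 and 123 bases before the annotated start. The first 4 belong to genes that rose in the FOXA1 knockdown and the last 4 to genes that fell there.
ISG15 (chr1:1013380-1013409, plus strand): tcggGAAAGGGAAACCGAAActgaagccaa
PARP14 (chr3:122680800-122680829, plus strand): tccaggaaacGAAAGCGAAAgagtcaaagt
SAMD9 (chr7:93118096-93118125, minus strand): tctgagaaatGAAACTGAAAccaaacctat
IFIT5 (chr10:89414513-89414542, plus strand): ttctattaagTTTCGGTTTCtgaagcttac
IFIH1 (chr2:162318686-162318715, minus strand): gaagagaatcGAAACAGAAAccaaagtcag
HERC5 (chr4:88457035-88457064, plus strand): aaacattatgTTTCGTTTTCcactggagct
OAS3 (chr12:112938321-112938350, plus strand): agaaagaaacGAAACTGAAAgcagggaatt
BST2 (chr19:17405735-17405764, minus strand): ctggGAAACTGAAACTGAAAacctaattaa
The 8 stretches are a selection with 4 genes of each direction, so they give no tally of the element by direction. The element also stood before DDX60, IFIT1, IFIT3, IFI27, IFI44, PARP9 and PARP12, which edgeR called in neither knockdown. A match describes the sequence only and says nothing of whether a factor was bound there.

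Facts of the series that bear on the set come next. Libraries held 12256092 to 15152890 counts. The targeted genes went with the labels: FOXA1 was at 29.5, 28.7 and 29.2% of its control mean in the 3 FOXA1 knockdown libraries, and TRIM28 was at 31.9, 28.2 and 14.0% in the 3 TRIM28 knockdown libraries. FOXA1 itself was at 47.1, 42.6 and 70.1% of the control mean in the TRIM28 knockdown, so the arms share a loss of FOXA1 mRNA. TRIM28 knockdown replicate 3 stood apart from its partners. Its chi-square per degree of freedom against them was 22.6 and 20.4, against 2.94 to 5.73 for the other pairs of replicates in the study, and limma gave it a sample weight of 0.232. In that library 10 stromal and endothelial markers summed to 468 CPM (counts scaled to the TMM library size), against 35.3 to 51.9 CPM in the other 11, with COL3A1 at 185 CPM, COL1A1 at 127 CPM and COL1A2 at 84.7 CPM. The 14 leukocyte and plasmacytoid cell markers summed to 5.18 CPM there and to 3.53 to 7.20 CPM elsewhere, with CLEC4C, the plasmacytoid dendritic cell marker, at 0 in all 12 libraries. The 10 luminal prostate markers summed to 2613 CPM there and to 2760 to 4535 CPM elsewhere. Results for the TRIM28 knockdown are therefore given with and without replicate 3. In bulk RNA, fewer cells of a type and less RNA per cell cannot be told apart.

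**Figure D1:**
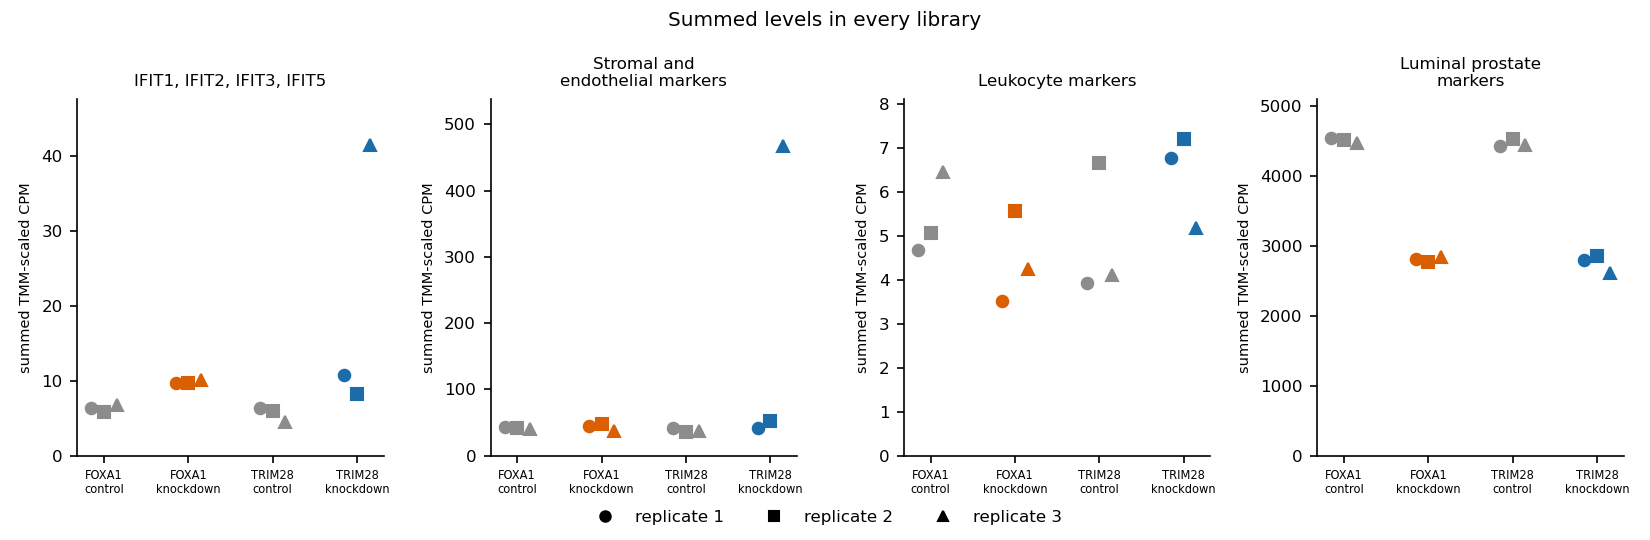
Summed TMM-scaled CPM of 4 gene groups in every library (vertical axis, linear from 0; marker shape gives the replicate number). TRIM28 knockdown replicate 3 is far above the other 11 libraries for the IFIT genes (41.5 against 4.44 to 10.8 CPM) and the stromal markers (468 against 35.3 to 51.9 CPM), and lies within their range for the leukocyte markers.

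Before any knockdown, the members' levels in LNCaP cells spanned a wide range. On the deposited FPKM scale, which is per gene length and so allows genes to be compared, 19 members averaged at least 1 FPKM over the 6 control libraries and 19 averaged less, 10 of these under 0.1 FPKM. BST2, the membrane tether that holds budding virions on the cell, led with 151 ± 11.5 FPKM (SD, n = 6). ISG15, a ubiquitin-like protein, followed with 18.5 ± 0.719 FPKM. Both levels lay above the next gene's without overlap of libraries. IFIH1, the sensor of long double-stranded RNA also called MDA5, had 7.66 ± 0.345 FPKM and PARP12, a mono-ADP-ribosyltransferase, had 7.27 ± 0.232 FPKM, and their ranges overlapped. The next group, from STAT2 at 6.25 ± 0.265 FPKM through USP18, IFI6, IFI35, IRF7, PARP14 and PARP9 to HERC5 at 3.84 ± 0.411 FPKM, overlapped neighbour by neighbour. Below a clear step came HERC6 at 1.91 ± 0.286 FPKM, then IRF1, OAS3, CMPK2, DDX60, IFI44 and MX1, the last at 1.08 ± 0.268 FPKM.

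The low end of the order held several of the genes by which an interferon response is usually recognised. IFIT1, IFIT2 and IFIT3 averaged 0.209, 0.228 and 0.140 FPKM, and OAS1, OAS2, RSAD2 and MX2 averaged 0.0353, 0.0302, 0.0416 and 0.0556 FPKM. IRF9, the DNA-binding partner of STAT2, averaged 0.0633 FPKM and never exceeded 8 counts in any of the 12 libraries. XAF1 and SAMD9L were lowest, at 0.0144 and 0.00691 FPKM, near the limit of this depth: XAF1 had at most 3 counts in any library, and SAMD9L at most 3 outside TRIM28 knockdown replicate 3, where it had 13. A count of 0 in a library allows up to 3 counts, so libraries at 0 do not show that the gene was absent.

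**Figure D2:**
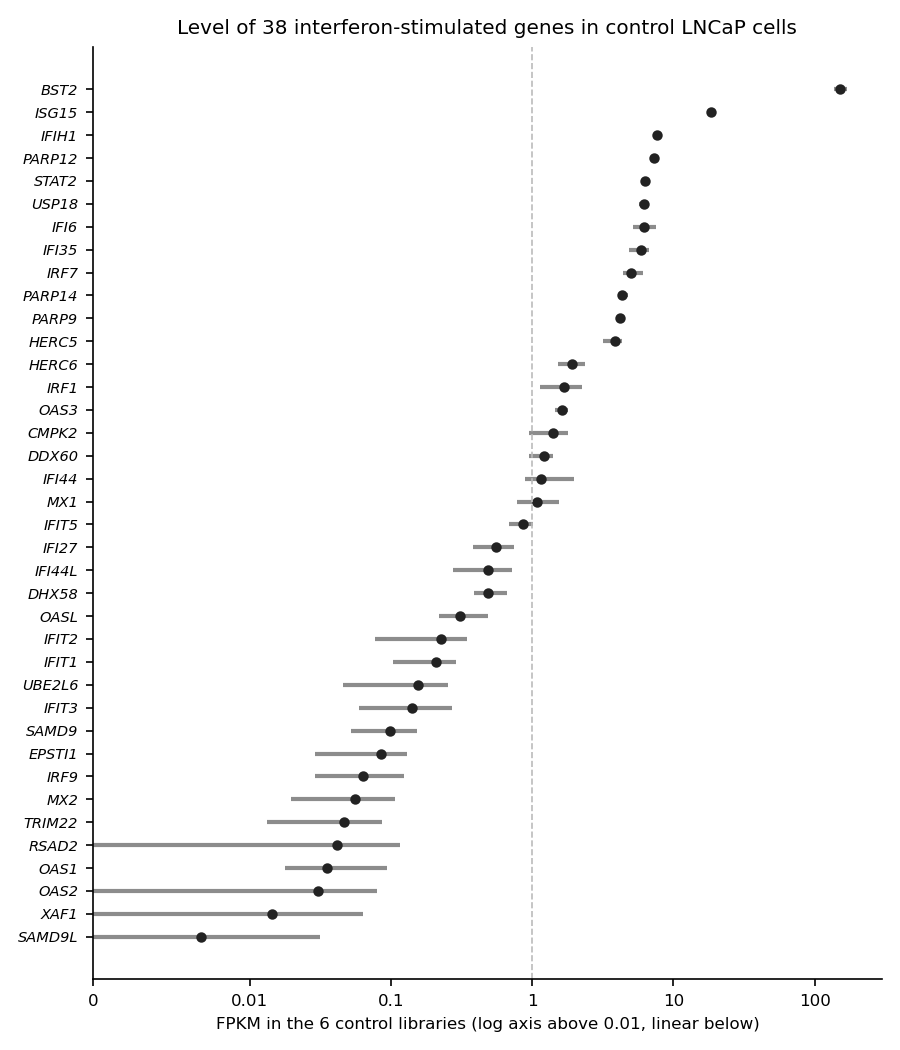
Mean (point) and range (bar) of FPKM over the 6 control libraries for all 38 members, ordered by mean (log axis above 0.01, linear below, dashed line at 1 FPKM). BST2 and ISG15 stand above all others, and 19 members lie left of 1 FPKM.

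The filter on low counts decided which members could be tested. It passed 29 in the FOXA1 comparison and 28 in the TRIM28 comparison, the 28 being shared. IRF9, OAS2, MX2, UBE2L6, SAMD9L, RSAD2, XAF1 and EPSTI1 passed nowhere, with at most 26 counts in any library. OAS1 passed only in the fit of all 12 libraries, and TRIM22 passed in the FOXA1 comparison and in the 12-library fit.

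In the FOXA1 knockdown the set split evenly: 8 of 29 tested members rose and 8 fell (27.6% each), and 13 did not pass the test (edgeR's quasi-likelihood test, adjusted p below 0.05). Over all 14953 genes tested 26.1% rose and 26.3% fell, so the members' shares were near the background. The median log2 fold change was 0.19 for the 29 members and −0.02 for all genes. The members that rose were IRF7, IFIT5, ISG15, IFI6, IFI35, PARP14, SAMD9 and TRIM22. Those that fell were IFIH1, OAS3, OASL, HERC5, HERC6, USP18, IFI44L and BST2.

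With all 3 knockdown libraries, the TRIM28 comparison called 4 of 28 members up and 1 down (14.3% and 3.57%), against 13.3% up and 13.3% down among all 14981 genes. The genes that rose were IFIT2, IFIT5, PARP14 and SAMD9, and IFIH1 fell. Without replicate 3, 4 members were again called up, now IFIT2, ISG15, PARP14 and SAMD9, and 6 were called down: IFIH1, OAS3, MX1, HERC5, HERC6 and CMPK2. The background without that library was 21.9% up and 23.9% down, against 14.3% and 21.4% of the members. With all libraries the members' upward share was near the background and the downward share below it, and without replicate 3 the upward share was below it and the downward share near it. With all libraries kept, limma voom with sample weights and the edgeR fit of all 12 libraries each called 7 members down: IFIH1, OAS3, MX1, HERC5, HERC6, USP18 and CMPK2. Over all genes those settings called 22.7% and 18.0% down, so the background rose there too. Scaling by library size only gave 2597 genes up and 1502 down (63.4% of calls up, against 49.9% with TMM scaling), with 5 members up and 1 down. The 2597 and 1502 genes were 17.3% and 10.0% of those tested. The median log2 fold change of the 28 members was 0.18 with replicate 3 and 0.13 without it, beside 0.00 and −0.01 over all genes.

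**Figure D3:**
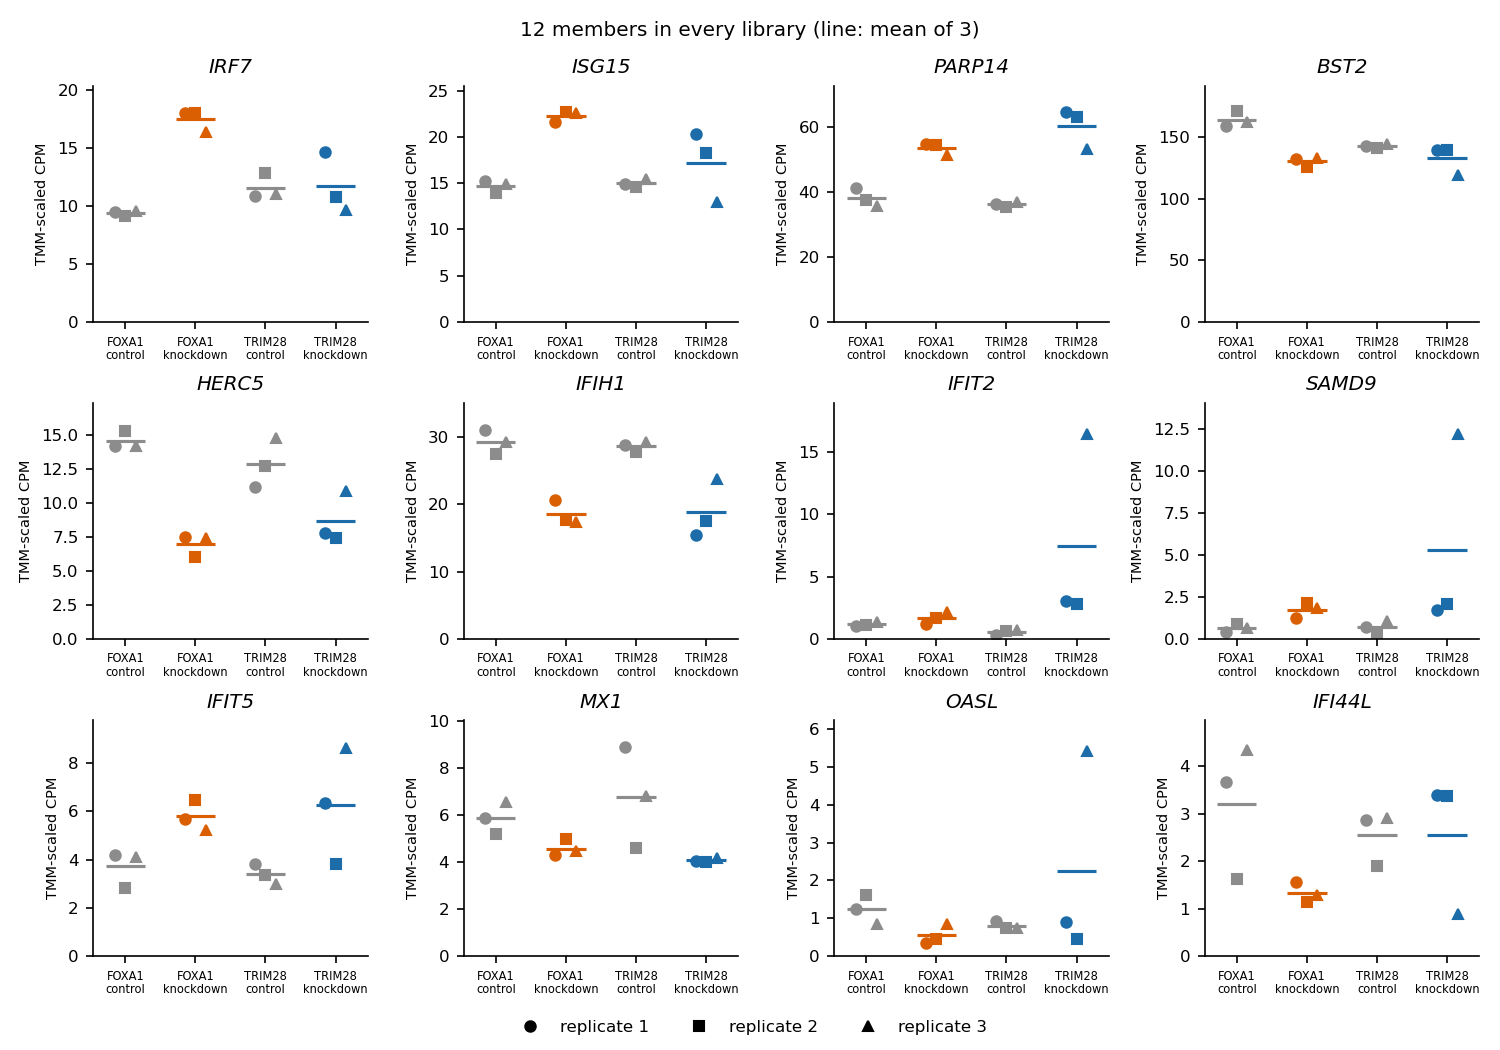
TMM-scaled CPM of 12 members in each of the 12 libraries (linear axes from 0, horizontal line at the mean of 3, marker shape for the replicate number). TRIM28 knockdown replicate 3 is far above its partners for IFIT2 (16.4 against 3.02 and 2.83 CPM), SAMD9 and OASL and below them for ISG15 and IFI44L. For these genes the FOXA1 knockdown libraries lie closer together, though OASL still spreads there (0.339, 0.457 and 0.850 CPM).

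Among the RNA sensors, IFIH1 (chr2:162267074-162318684 in the coordinates of the deposited tables, GRCh38 per the submitters' processing notes) fell in both knockdowns. It measured 31.1, 27.4 and 29.3 CPM in the FOXA1 controls and 20.7, 17.6 and 17.3 CPM in the FOXA1 knockdown. Its TRIM28 pair gave 28.8, 27.7 and 29.3 CPM in the controls and 15.4, 17.5 and 23.8 CPM in the knockdown. No knockdown library reached a control library in either pair, and TRIM28 knockdown replicate 3 lay nearest to its controls. The log2 fold change was −0.66 (SE 0.10, adjusted p = 1.49e-06, edgeR) in the FOXA1 knockdown and −0.60 (SE 0.15, adjusted p = 0.0179, edgeR) in the TRIM28 knockdown. Without TRIM28 knockdown replicate 3 the latter was −0.79 (SE 0.12, adjusted p = 8.07e-07, edgeR). Its call was lost when any other of the 6 libraries was left out, with edgeR adjusted p of 0.0725, 0.0665 and 0.0703 without control replicates 1, 2 and 3, and 0.0553 and 0.0713 without knockdown replicates 1 and 2.

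The other sensors did not pass the test. DHX58, known as LGP2, a regulator of its relatives, held 1.03 to 1.15 CPM in the FOXA1 controls and 1.30 to 1.70 CPM in the knockdown. With TRIM28 depleted it measured 2.14 and 2.14 CPM in replicates 1 and 2 and 0.638 CPM in replicate 3, which was the lowest of the 12 libraries. DDX60, a helicase linked to antiviral RNA recognition, measured 8.48, 11.1 and 14.8 CPM in the 3 TRIM28 knockdown libraries against 6.37 to 9.21 CPM in their controls. Leaving out TRIM28 knockdown replicate 1 brought DDX60 under the threshold (log2 fold change 0.70, edgeR adjusted p = 0.0492).

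Among the transcription factors was IRF7, the only member whose effects differed between the knockdowns in the fit of all libraries. IRF7 (chr11:612553-615983), which drives the interferon-alpha and interferon-beta genes, measured 9.45, 9.12 and 9.56 CPM in the FOXA1 controls and 18.0, 18.0 and 16.4 CPM in the FOXA1 knockdown. It measured 10.8, 12.8 and 11.0 CPM in the TRIM28 controls and 14.7, 10.7 and 9.65 CPM in the TRIM28 knockdown. The FOXA1 groups were far apart, and the TRIM28 groups overlapped. IRF7 changed by 0.89 on the log2 scale (SE 0.12, adjusted p = 3.32e-07, edgeR) with FOXA1 depleted, and its estimate was 0.02 with TRIM28 depleted. Tested as a difference of the effects, TRIM28 minus FOXA1, it was −0.88 (SE 0.21, adjusted p = 0.0121, edgeR), and it stayed past the threshold in all 12 fits that leave out a library.

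STAT2, the transactivating partner of IRF9, kept to 36.9 to 44.7 CPM in all 12 libraries and was not called. IRF1, the factor of the interferon-gamma response, ranged from 5.94 to 12.5 CPM without a call, although leaving out FOXA1 control replicate 2, its lowest library, gave a log2 fold change of −0.43 (edgeR adjusted p = 0.0383). IRF9 held 2 to 8 counts per library and was not tested.

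The IFIT family, tetratricopeptide proteins that bind viral RNA and restrain its translation, showed a wide spread between TRIM28 knockdown libraries. IFIT2 (chr10:89283694-89309271) had 4, 9 and 9 counts in the TRIM28 controls and 41, 37 and 206 counts in the knockdown libraries, or 0.286, 0.658 and 0.727 CPM against 3.02, 2.83 and 16.4 CPM. In the FOXA1 pair it measured 1.03, 1.15 and 1.32 CPM in the controls and 1.22, 1.68 and 2.13 CPM in the knockdown. All 3 TRIM28 knockdown libraries lay above every control library, and replicate 3 lay far above the others. IFIT2 rose by a log2 fold change of 3.72 (SE 0.87, adjusted p = 0.0193, edgeR) with replicate 3 and 2.40 (SE 0.43, adjusted p = 1.82e-05, edgeR) without it. The call was lost narrowly when a TRIM28 control was left out (edgeR adjusted p of 0.0532, 0.0575 and 0.0510 without replicates 1, 2 and 3). The difference from the FOXA1 effect did not pass in the full fit (3.20, SE 1.03, edgeR adjusted p = 0.0735), and did so without TRIM28 knockdown replicate 3 (1.87, SE 0.56, edgeR adjusted p = 0.0121), replicate 1 (edgeR adjusted p = 0.0245) or replicate 2 (edgeR adjusted p = 0.0209). It also passed with all libraries by DESeq2 (adjusted p = 0.00230) and limma voom (adjusted p = 0.0132). The TRIM28 controls themselves differed from the FOXA1 controls by −1.06 for IFIT2 (SE 0.46, unadjusted p = 0.0289, edgeR adjusted p = 0.992). The part of this in the difference was not tested.

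IFIT1 and IFIT3, which assemble with IFIT2 in a complex, had most of their TRIM28 knockdown counts in replicate 3. IFIT1 had 16, 18 and 6 counts in the TRIM28 controls and 2, 13 and 118 counts in the knockdown libraries. IFIT3 had 15, 9 and 3 counts in the controls and 17, 7 and 88 counts in the knockdown. Replicates 1 and 2 lay within or below the control range for IFIT1, while for IFIT3 replicate 1 was just above it and replicate 2 within it, and neither gene passed edgeR's test in the TRIM28 knockdown. IFIT3 was called up there by DESeq2 (2.16, adjusted p = 0.0282) and by edgeR with no count filter (2.13, adjusted p = 0.00654). With replicate 3 the estimate for IFIT1 was 1.81 on the log2 scale (SE 1.26), and without it −0.79 (SE 0.61). IFIT1 measured 1.90, 0.533 and 1.56 CPM in the FOXA1 knockdown against 0.879, 1.35 and 0.699 CPM. Those groups overlapped and it was not called (0.44, SE 0.42, edgeR adjusted p = 0.396). In the FOXA1 knockdown IFIT3 measured 0.814, 1.07 and 1.20 CPM against 0.293, 0.540 and 0.622 CPM, a log2 fold change of 1.06 just short of the threshold (SE 0.46, edgeR adjusted p = 0.0529). It passed when knockdown replicate 1 was left out (log2 fold change 1.22), when scaled by library size only (1.08) and by limma voom (1.17).

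IFIT5, a relative that binds RNA with a free triphosphate, rose in both knockdowns. It measured 4.18, 2.84 and 4.12 CPM in the FOXA1 controls and 5.70, 6.48 and 5.24 CPM in the knockdown, and 3.79, 3.36 and 2.99 CPM in the TRIM28 controls against 6.34, 3.83 and 8.61 CPM in that knockdown. Groups did not overlap in either pair, although TRIM28 knockdown replicate 2 lay close to its highest control. IFIT5 rose by 0.65 (SE 0.20, adjusted p = 0.00829, edgeR) with FOXA1 depleted and 0.89 (SE 0.29, adjusted p = 0.0465, edgeR) with TRIM28 depleted. The first call was lost without FOXA1 control replicate 2 (edgeR adjusted p = 0.0580) and in the fit of all 12 libraries (edgeR adjusted p = 0.0550). The second was lost by limma voom (adjusted p = 0.0648), and without any TRIM28 library except knockdown replicate 2, at edgeR adjusted p between 0.0601 (without knockdown replicate 3) and 0.149 (without control replicate 3).

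The OAS family makes oligoadenylates, second messengers of the antiviral state, when it binds double-stranded RNA. OAS3, the member with the highest level here, measured 16.9, 17.6 and 14.5 CPM in the FOXA1 controls and 12.7, 14.3 and 11.5 CPM in the knockdown, without overlap. It fell by 0.35 on the log2 scale there (SE 0.12, adjusted p = 0.0170, edgeR), a call lost when the fit omitted control replicate 1 (edgeR adjusted p = 0.0578), control replicate 2 (0.0902) or knockdown replicate 3 (0.103), or took in all 12 libraries (0.112). Its levels in the TRIM28 pair were 16.5, 15.7 and 14.9 CPM in the controls and 9.06, 9.04 and 14.9 CPM in the knockdown. Replicates 1 and 2 were low and replicate 3 sat with the controls, and the log2 fold change was −0.51 (edgeR adjusted p = 0.0818) with replicate 3 and −0.79 (SE 0.15, adjusted p = 6.04e-05, edgeR) without it. With all libraries kept, OAS3 passed by limma voom (adjusted p = 0.000488) but not by DESeq2 (adjusted p = 0.0748). In edgeR it passed in the 12-library fit (adjusted p = 0.0260) and with no filter (0.0302), but not with the replicate block (0.0704).

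OASL, a relative that lacks the enzyme activity and binds RIG-I, moved apart between libraries. Its values were 1.25, 1.62 and 0.855 CPM in the FOXA1 controls and 0.339, 0.457 and 0.850 CPM in the knockdown, and 0.931, 0.732 and 0.727 CPM in the TRIM28 controls against 0.884, 0.460 and 5.42 CPM in the knockdown. In the latter the estimate was 1.48 with replicate 3 and −0.23 without it, neither called by edgeR, although with no count filter it passed (1.49, edgeR adjusted p = 0.0152). The FOXA1 groups did not overlap by a narrow margin, and a single TRIM28 library was high. With FOXA1 depleted it fell by 1.18 on the log2 scale (SE 0.45, adjusted p = 0.0277, edgeR). That call was lost by DESeq2 (adjusted p = 0.0825), with no count filter (edgeR adjusted p = 0.0552) and in the fit of all 12 libraries (edgeR adjusted p = 0.251). It was also lost in 4 of the 6 fits that leave out a library, without control replicates 1 and 2 (edgeR adjusted p of 0.0536 and 0.133) and without knockdown replicates 1 and 2 (edgeR adjusted p of 0.128 and 0.0852). The difference between the knockdowns was 2.65 (SE 1.05, edgeR adjusted p = 0.132) with all libraries, 3.13 (edgeR adjusted p = 0.0287) without TRIM28 knockdown replicate 2 and 0.93 (SE 0.73, edgeR adjusted p = 0.405) without replicate 3. With all libraries it passed with no count filter (2.63, edgeR adjusted p = 0.00293) but not by DESeq2 (adjusted p = 0.0586). OAS1 and OAS2 were not tested in either knockdown alone. OAS1 had 2, 2 and 3 counts in the FOXA1 controls and 9, 18 and 15 counts in that knockdown, without overlap. In the fit of all 12 libraries it was called up with FOXA1 depleted. It had 2, 10 and 3 counts in the TRIM28 controls and 2, 7 and 32 counts in that knockdown. OAS2 had 1, 1 and 6 counts in the FOXA1 controls and 5, 4 and 11 in the knockdown. It had 3, 3 and 0 counts in the TRIM28 controls and 2, 5 and 11 in the knockdown.

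MX1, a dynamin-like GTPase that blocks viral nucleoproteins, measured 8.88, 4.61 and 6.78 CPM in the TRIM28 controls and 4.05, 3.98 and 4.15 CPM in the knockdown. In the FOXA1 pair it measured 5.86, 5.20 and 6.53 CPM in the controls and 4.27, 4.95 and 4.47 CPM in the knockdown. Knockdown libraries lay below all controls in both pairs, and here replicate 3 was with its partners. The log2 fold change was −0.73 (SE 0.25, edgeR adjusted p = 0.0549) in the TRIM28 knockdown and −0.36 (SE 0.18, edgeR adjusted p = 0.0983) in the FOXA1 knockdown, neither past the threshold. MX1 passed in the TRIM28 comparison without knockdown replicate 3 (−0.74, edgeR adjusted p = 0.0134) and without control replicate 2, its lowest control (−0.93, edgeR adjusted p = 0.0355). With all libraries kept, it passed there by DESeq2 (adjusted p = 0.0499) and limma voom (adjusted p = 0.0220). In edgeR it passed in the 12-library fit (adjusted p = 0.0145) and with no filter (0.0448), but not with the replicate block (0.0676). MX2 had 1 to 6 counts per library.

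The ISG15 system attaches ISG15 to other proteins through the conjugating enzyme UBE2L6 and the ligase HERC5, and USP18 removes it and also restrains signalling at the interferon receptor. In the FOXA1 knockdown the modifier and its ligase moved in opposite directions. ISG15 (chr1:1001138-1014540) measured 15.2, 13.9 and 14.9 CPM in the FOXA1 controls and 21.6, 22.7 and 22.5 CPM in the knockdown. HERC5 (chr4:88457119-88506163) measured 14.2, 15.3 and 14.2 CPM in the controls and 7.53, 6.02 and 7.44 CPM in the knockdown. Both separations were wide compared with the spread within a group. ISG15 rose by 0.60 on the log2 scale (SE 0.10, adjusted p = 1.78e-05, edgeR) and HERC5 fell by 1.06 (SE 0.14, adjusted p = 1.52e-07, edgeR).

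With TRIM28 depleted, ISG15 was above its controls in replicates 1 and 2 only, and HERC5 was below its controls in all 3 libraries. ISG15 measured 14.9, 14.6 and 15.4 CPM in the TRIM28 controls and 20.3, 18.3 and 12.9 CPM in the knockdown. HERC5 measured 11.2, 12.7 and 14.8 CPM in the controls and 7.81, 7.43 and 10.9 CPM in the knockdown. Replicate 3 was the lowest of the 12 libraries for ISG15 and reached close to the lowest control for HERC5. With it neither was called in the main edgeR fit (log2 fold change 0.21 for ISG15 and −0.56 for HERC5, edgeR adjusted p of 0.396 and 0.0540). The ISG15 effects of the knockdowns differed by −0.40 (SE 0.19, edgeR adjusted p = 0.208). With all libraries kept, HERC5 was called down by DESeq2 (adjusted p = 0.0458) and limma voom (adjusted p = 0.00151). HERC5 also passed in the 12-library fit, with no filter and with the replicate block (edgeR adjusted p of 0.0129, 0.0305 and 0.0361). ISG15 was called up by limma voom (adjusted p = 0.0498). Without replicate 3 ISG15 rose by 0.38 (edgeR adjusted p = 0.0195) and HERC5 changed by −0.75 (SE 0.17, adjusted p = 0.000457, edgeR).

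HERC6, a paralogue beside HERC5 on chromosome 4, measured 5.98 to 7.03 CPM in the FOXA1 controls and 3.33 to 4.34 CPM in the knockdown, where it fell by 0.76 on the log2 scale (SE 0.19, adjusted p = 0.00106, edgeR). In the TRIM28 knockdown it measured 2.51, 5.44 and 6.30 CPM against 6.94 to 9.22 CPM, a log2 fold change of −0.76 (edgeR adjusted p = 0.0908) with replicate 3 and −1.01 (edgeR adjusted p = 0.00145) without it. With all libraries kept, HERC6 passed by limma voom (adjusted p = 0.00437) but not by DESeq2 (adjusted p = 0.0631). It also passed in the 12-library fit, with no filter and with the replicate block (edgeR adjusted p of 0.0256, 0.0187 and 0.0392). USP18 fell by 0.38 on the log2 scale with FOXA1 depleted (SE 0.12, adjusted p = 0.00822, edgeR), and lost the call without knockdown replicate 2 (edgeR adjusted p = 0.0603) or 3 (edgeR adjusted p = 0.0562). With TRIM28 depleted USP18 measured 16.8, 14.0 and 13.2 CPM against 18.5 to 19.2 CPM and did not pass (−0.35, edgeR adjusted p = 0.0755). It did pass without knockdown replicate 1 (−0.46, edgeR adjusted p = 0.0453), by limma voom (adjusted p = 0.0422) and in the fit of all 12 libraries (edgeR adjusted p = 0.0399). USP18 shares long stretches with the gene USP41, and how the counting treated shared reads goes unstated. UBE2L6 was nearly silent, with 1 to 5 counts in the 6 controls, and had 2, 9 and 26 counts in the TRIM28 knockdown.

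The IFI genes are a group named for interferon induction rather than for a shared function. Of 5 tested in the FOXA1 knockdown 2 rose and 1 fell, beside 26.1% up and 26.3% down over all genes. IFI35, a partner of NMI, measured 6.15 to 7.43 CPM in the controls and 9.99 to 11.0 CPM in the knockdown, a rise of 0.57 on the log2 scale (SE 0.15, adjusted p = 0.00179, edgeR). IFI6, an organelle membrane protein that limits cell death, measured 4.84, 6.42 and 4.89 CPM against 6.65, 7.01 and 8.29 CPM (0.43, SE 0.18, adjusted p = 0.0403, edgeR). This call failed by DESeq2 (adjusted p = 0.0803), with no count filter (edgeR adjusted p = 0.0686) and in the fit of all 12 libraries (edgeR adjusted p = 0.104). It also failed in 4 of the 6 fits that leave out a library, without control replicates 1 and 3 (edgeR adjusted p of 0.140 and 0.117) and without knockdown replicates 2 and 3 (edgeR adjusted p of 0.0591 and 0.174).

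IFI44L, whose product is poorly understood, measured 3.66, 1.62 and 4.35 CPM in the FOXA1 controls and 1.56, 1.14 and 1.28 CPM in the knockdown. It fell there by 1.26 on the log2 scale (SE 0.33, adjusted p = 0.00208, edgeR). In the TRIM28 pair it measured 2.86, 1.90 and 2.91 CPM in the controls and 3.39, 3.37 and 0.877 CPM in the knockdown. Replicates 1 and 2 were above all controls and replicate 3 below them, so that the difference between the knockdowns was 1.26 (edgeR adjusted p = 0.223) with replicate 3 and 1.66 (SE 0.45, adjusted p = 0.00559, edgeR) without it. With all libraries the difference passed by limma voom (1.38, adjusted p = 0.0464) but not by DESeq2 (adjusted p = 0.202). IFI27 and IFI44 were not called, though IFI27 (0.72 in the FOXA1 knockdown, edgeR adjusted p = 0.0660) passed without control replicate 3 (0.86, edgeR adjusted p = 0.0471) or knockdown replicate 3 (0.95, edgeR adjusted p = 0.0210). None of the 5 IFI genes was called in the TRIM28 knockdown, with or without replicate 3. Over all genes 13.3% were called in each direction with replicate 3, and 21.9% up and 23.9% down without it. With 5 genes these counts cannot set the group apart from all genes.

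PARP14, a mono-ADP-ribosyltransferase, was the only member called in both knockdowns in every fit that leaves out a library. PARP14 (chr3:122680839-122730840) measured 41.2, 37.4 and 35.5 CPM in the FOXA1 controls and 54.6, 54.4 and 51.4 CPM in the knockdown. It measured 36.2, 35.4 and 36.8 CPM in the TRIM28 controls and 64.5, 62.9 and 53.3 CPM in that knockdown. No knockdown library overlapped a control, replicate 3 included. PARP14 rose by 0.49 (SE 0.07, adjusted p = 2.65e-06, edgeR) and by 0.74 (SE 0.10, adjusted p = 0.00112, edgeR). The rise was larger in the TRIM28 knockdown by 0.33 (edgeR adjusted p = 0.0275) when replicate 3 was left out, but not past the threshold with it. PARP9, which pairs with DTX3L, lies on the same chromosome as PARP14 (chr3:122527924-122564577). It measured 28.4 to 30.1 CPM in the FOXA1 controls against 30.5 to 36.1 CPM, and 28.5 to 28.9 CPM in the TRIM28 controls against 33.5 to 34.4 CPM. The knockdown libraries lay above in both pairs, yet PARP9 passed in neither (0.19 and 0.24, edgeR adjusted p of 0.0668 and 0.0846). In the FOXA1 comparison it did pass when scaled by library size only (edgeR adjusted p = 0.0498) or without knockdown replicate 2 (edgeR adjusted p = 0.0232). In the TRIM28 comparison it did so when scaled by library size only (edgeR adjusted p = 0.0313), by limma voom (adjusted p = 0.0490) and in the fit of all 12 libraries (edgeR adjusted p = 0.0376). PARP12 was not called.

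SAMD9, a cytosolic antiviral protein that halts translation, rose in both knockdowns from a very low level. SAMD9 (chr7:93099513-93118023) measured 0.440, 0.878 and 0.622 CPM in the FOXA1 controls and 1.22, 2.13 and 1.84 CPM in the knockdown. It had 10, 5 and 13 counts in the TRIM28 controls and 23, 27 and 153 counts in the knockdown libraries, or 0.716, 0.366 and 1.05 CPM against 1.70, 2.07 and 12.2 CPM. All knockdown libraries exceeded all controls in both pairs, and replicate 3 again stood far above. SAMD9 rose by 1.39 (SE 0.40, adjusted p = 0.00429, edgeR) with FOXA1 depleted and 2.90 (SE 0.89, adjusted p = 0.0485, edgeR) with TRIM28 depleted. The first call was lost in the fit of all 12 libraries (edgeR adjusted p = 0.195). The second estimate was 1.42 (SE 0.46, adjusted p = 0.0112, edgeR) without replicate 3, and was lost without TRIM28 control replicate 1, 2 or 3 (edgeR adjusted p of 0.0995, 0.128 and 0.0849). Its neighbour SAMD9L had 0, 2 and 13 counts in the TRIM28 knockdown and at most 3 counts in any other library.

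Among the remaining effectors, BST2 (chr19:17402939-17405630), the most abundant member, fell in the FOXA1 knockdown. It measured 159, 172 and 162 CPM in the FOXA1 controls and 132, 126 and 133 CPM in the knockdown, and 143, 141 and 145 CPM in the TRIM28 controls against 139.9, 140.0 and 119.7 CPM in that knockdown. The FOXA1 groups were well separated, and in the TRIM28 pair only replicate 3 was far from its controls. BST2 fell by 0.34 on the log2 scale in the FOXA1 knockdown (SE 0.05, adjusted p = 3.18e-06, edgeR) and did not pass in the TRIM28 knockdown. The difference of the effects was 0.23 (edgeR adjusted p = 0.152) with replicate 3 and 0.30 (SE 0.08, adjusted p = 0.00408, edgeR) without it. With all libraries the difference passed by limma voom (0.28, adjusted p = 0.0135) but not by DESeq2 (adjusted p = 0.157). The FOXA1 and TRIM28 controls themselves differed by −0.19 for BST2 (SE 0.05, unadjusted p = 0.00162, edgeR adjusted p = 0.992).

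TRIM22, a ubiquitin ligase that restrains viral transcription, rose in the FOXA1 knockdown from 0.0733, 0.473 and 0.233 CPM to 1.63, 0.762 and 1.42 CPM, by 2.23 on the log2 scale (SE 0.53, adjusted p = 0.000866, edgeR). With TRIM28 depleted it had 20, 35 and 4 counts, where replicate 3 was the low library, and it was not tested there. With replicate 3 left out and the count filter applied anew it was tested and called up, which made 5 members up and 6 down of 29. Over all genes that setting called 21.5% up and 23.5% down. CMPK2, a mitochondrial nucleotide kinase, measured 5.51, 4.46 and 5.49 CPM in the TRIM28 controls and 3.91, 1.46 and 3.19 CPM in the knockdown. The log2 fold change was −0.84 (edgeR adjusted p = 0.0772) with all libraries, −0.93 (edgeR adjusted p = 0.0118) without replicate 3 and −1.14 (edgeR adjusted p = 0.0486) without knockdown replicate 1. With all libraries kept, CMPK2 passed by limma voom (adjusted p = 0.00411) but not by DESeq2 (adjusted p = 0.0611). It also passed in the 12-library fit, with no filter and with the replicate block (edgeR adjusted p of 0.0260, 0.0444 and 0.0464). CMPK2 overlaps the start of RSAD2 on the other strand, and the labels do not say whether the counting used strand. RSAD2, the enzyme viperin, had 3, 8 and 19 counts in the TRIM28 knockdown and EPSTI1 had 1, 1 and 9, while XAF1 had at most 3 counts in any library.

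**Figure D4:**
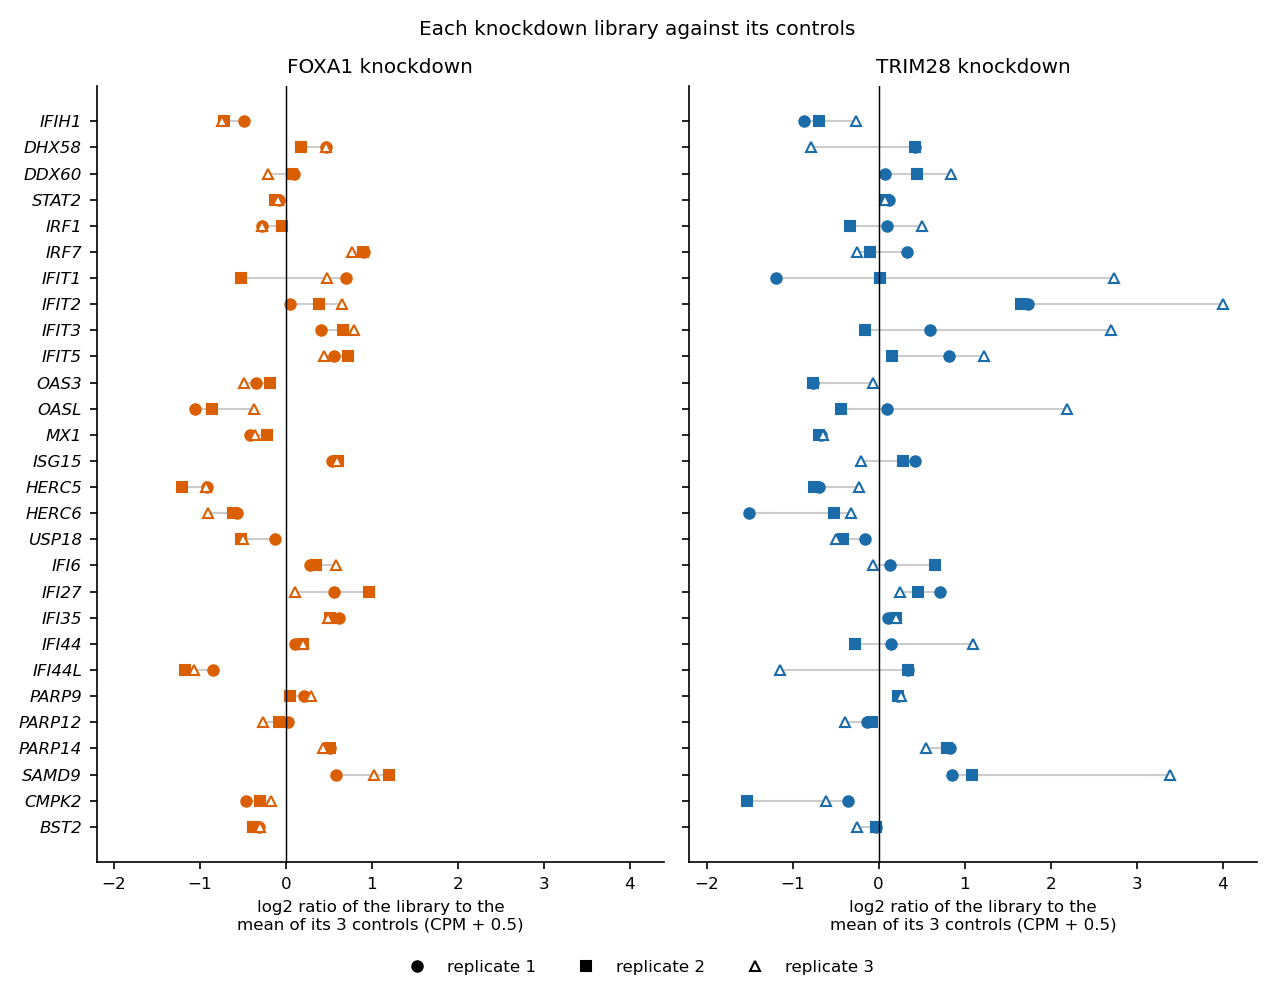
Log2 ratio of each knockdown library to the mean of its 3 controls, on CPM plus 0.5, for the 28 members tested in both comparisons (horizontal axis; marker shape for the replicate, replicate 3 open). In the TRIM28 panel replicate 3 lies above 1 for 7 members and is on the other side of 0 from both partners for some, such as ISG15 and IFI44L. The FOXA1 replicates keep to 1 side of 0 for most members, but IFIT1 is split (0.70, −0.51 and 0.48).

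Taken library by library, the 3 FOXA1 knockdown libraries lay on the same side of the control mean for most members: 14 of 29 tested members were above it in all 3 libraries, 12 were below it in all 3 and 3 were mixed. In the TRIM28 knockdown 9 of 28 were above in all 3, 9 were below in all 3 and 10 were mixed. Replicate 3 was more than 2-fold above the control mean for 7 members, against 1 and 2 members for replicates 1 and 2. It was the highest of all 12 libraries for 15 of the 38 members: DDX60, IRF1, IFIT1, IFIT2, IFIT3, IFIT5, OAS1, OAS2, OASL, UBE2L6, IFI44, SAMD9, SAMD9L, RSAD2 and EPSTI1. It was the lowest for 5: DHX58, ISG15, IFI44L, PARP12 and BST2. No other library was highest for more than 5 members. Some of the 15 rest on few counts: EPSTI1 had 9 there and at most 8 elsewhere, and OAS2 had 11 and at most 11. None of these library-by-library counts was taken over all genes, so they do not show a trait particular to the members. The stromal markers given above moved with this library, and their part in these values was not tested. TRIM28 itself was also lowest in this library, and its part was likewise not tested. The summed level of all 38 members differed far less than single genes, 486 CPM in replicate 3 against 431 to 464 CPM in the other 11, and without BST2 it was 366 CPM against 290 to 317 CPM.

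**Figure D5:**
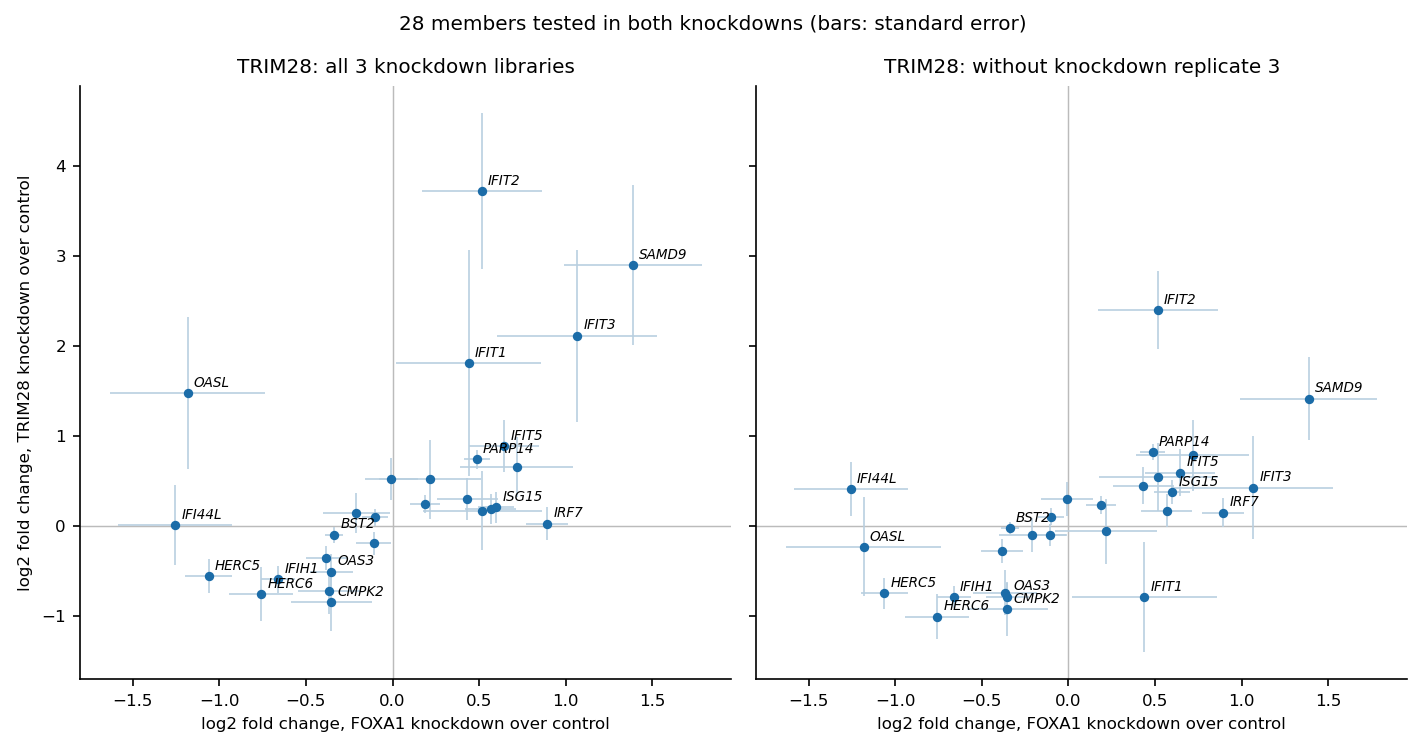
Log2 fold change in the TRIM28 knockdown (vertical) against the FOXA1 knockdown (horizontal) for the 28 members tested in both, with standard errors, using all TRIM28 knockdown libraries (left) or leaving out replicate 3 (right). PARP14, SAMD9 and IFIT5 lie to the upper right and IFIH1, HERC5 and HERC6 to the lower left in both panels, while OASL, IFIT1 and IFIT3 drop when replicate 3 is left out.

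The knockdowns used separate control libraries, and their calls overlapped in part, by shares that can be read beside those of the 14498 genes tested in both. Of the 8 members up with FOXA1 depleted, IFIT5, PARP14 and SAMD9 were also up with TRIM28 depleted (37.5% of the 8 and 75.0% of the 4), near the 37.9% and 72.9% over all genes. IFIH1 was the shared fall, 12.5% of 8 and the single downward call of the TRIM28 comparison, beside 37.3% and 73.2% over all genes. Without TRIM28 knockdown replicate 3, ISG15, PARP14 and SAMD9 were shared upward, again 37.5% and 75.0%, beside 54.9% and 63.9% over all genes. IFIH1, OAS3, HERC5 and HERC6 were shared downward (50% of the 8 and 66.7% of the 6), beside 59.0% and 64.8%. No member was called in opposite directions. Over all genes such calls were few too, 77 and 51 beside 3751 genes up and 3913 down with FOXA1 depleted. Without replicate 3 they were 245 and 120. With 8 members called in each direction, their lack of opposite calls does not set them apart from all genes. These shares and counts have no test, and FOXA1 mRNA was itself low in both arms.

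The difference between the effects was tested directly over all 12 libraries, as the signed log2 fold change of the TRIM28 knockdown minus that of the FOXA1 knockdown. IRF7 alone of 30 members passed, with a lower signed value in the TRIM28 knockdown, beside 5.98% of 15921 genes called in that direction. Over all genes 43.4% of the calls were higher in the TRIM28 knockdown, or 60.0% when scaled by library size only, which left the members' calls at IRF7 alone. No member was called higher in the TRIM28 knockdown, beside 4.59% of all genes (edgeR). By unadjusted p below 0.05, 5 of the 30 members passed in either direction, a count not taken over all genes. DESeq2 called 1 higher and 1 lower, beside 5.23% and 6.73% of all genes. With sample weights limma voom called 4 higher and 1 lower, beside 9.08% and 12.7%. Without replicate 3 edgeR called IFIT2, IFI44L, PARP14 and BST2 higher and IRF7 lower, against a background of 9.28% and 13.2%. For BST2 and IFI44L, which fell with FOXA1 depleted, a higher signed value does not mean a larger change. IFI35, which rose with FOXA1 depleted, came next to IRF7 and ISG15 in the downward direction, at −0.39 (SE 0.21, edgeR adjusted p = 0.259). The controls of the 2 arms gave no call among 27 members by edgeR, DESeq2 or limma, and none among all 14839 genes tested. In edgeR 4 members (BST2, CMPK2, IFIT2 and IRF7) had an unadjusted p below 0.05, a count not taken over all genes.

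Upstream of the set, interferon genes were silent or nearly so. None of 10 ligand genes passed the filter. IFNB1, the interferon-beta gene, had 0 counts in all 6 control libraries, 0, 0 and 1 counts in the FOXA1 knockdown and 10, 2 and 2 counts in the TRIM28 knockdown. A count of 0 allows up to 3 counts, which is 0.214 to 0.240 CPM in the TRIM28 controls, and knockdown replicate 1 had 0.737 CPM while replicates 2 and 3 had 0.153 and 0.159 CPM. IFNB1 had its most counts in knockdown replicate 1 and the IFIT genes had theirs in replicate 3, and a link between them was not tested.

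Receptors and kinases were measured at unequal levels: IFNLR1, the specific chain of the type III receptor, had 1 to 7 counts in the 6 controls and was not tested in either knockdown. Of 9 tested in the FOXA1 knockdown 5 rose and 0 fell, beside 26.1% up and 26.3% down over all genes. Of 10 tested in the TRIM28 knockdown 4 rose and 1 fell, beside 13.3% in each direction, and the medians were 0.43 and 0.33. IFNAR1, a chain of the type I receptor, rose in both (0.56, SE 0.06, adjusted p = 1.47e-09 and 0.54, SE 0.08, adjusted p = 0.00167, edgeR). IFNGR1, of the type II receptor, rose by 0.76 and 0.33, the kinase JAK2 by 0.78 and 0.62, and STAT3 by 0.43 and 0.34. TYK2 fell in the TRIM28 knockdown by 0.32 (edgeR adjusted p = 0.0442), a call lost by DESeq2 and with the replicate block. JAK1, the kinase that all interferon receptors use, was low at 6.31 to 11.3 CPM in 11 libraries and 19.4 CPM in TRIM28 knockdown replicate 3.

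Of the genes that sense nucleic acid or relay the signal, 7 of 12 tested rose in the FOXA1 knockdown and 0 fell (median 0.37), beside the same 26.1% and 26.3% of all genes. The smallest p-values belonged to the adaptor MYD88 (0.72, SE 0.08), the factor IRF3 (0.51, SE 0.09) and the RNA-editing enzyme ADAR (0.22, SE 0.05). In the TRIM28 knockdown 2 of 12 rose, a share near the 13.3% of all genes, among them EIF2AK2, the kinase PKR (0.34, SE 0.10, adjusted p = 0.0255, edgeR). Without replicate 3 the count was 5 up and 1 down, beside 21.9% and 23.9% of all genes, with MYD88 among the 5 (edgeR adjusted p = 2.78e-06). RIGI had 2 to 11 counts per library. CGAS, the DNA sensor, had 30 counts in TRIM28 knockdown replicate 3 and at most 6 in any other library.

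Negative regulators changed in both directions. In the FOXA1 knockdown 4 of 9 rose and 2 fell, beside 26.1% and 26.3% of all genes. The smallest p-value belonged to PIAS1, a STAT inhibitor (0.98, SE 0.05), with the phosphatases PTPN2 (−0.55, SE 0.09) and PTPN1 (0.43, SE 0.07) next. With TRIM28 depleted PTPN1 alone passed of 9 (0.41, SE 0.09, adjusted p = 0.0107, edgeR), beside 13.3% of all genes in each direction. RNASEH2C and SAMHD1, which clear nucleic acid that could be sensed, stood next at −0.36 and 0.26 (edgeR adjusted p of 0.0517 and 0.0658). Without replicate 3 the count was 2 up and 3 down, beside 21.9% and 23.9%.

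A wider list of 46 other interferon-induced genes, outside the 38, gave more rises than falls. In the FOXA1 knockdown 21 of 35 tested rose and 5 fell, beside 26.1% and 26.3% of all genes. In the TRIM28 knockdown 16 of 34 rose and 4 fell, beside 13.3% in each direction, or 20 and 6 without replicate 3, beside 21.9% and 23.9%. Medians were 0.43 and 0.50, beside −0.02 and 0.00 over all genes. SLFN5, a nuclear repressor, rose by 1.53 (SE 0.07) and 1.57 (SE 0.34), LGALS3BP, a secreted galectin ligand, by 1.74 (SE 0.09) and 0.87 (SE 0.15), and ZC3HAV1, the CpG-binding antiviral protein ZAP, by 1.03 (SE 0.06) and 0.92 (SE 0.12). APOL6 and APOL2, cytosolic apolipoprotein L proteins, rose by 1.94 (SE 0.20) and 1.05 (SE 0.14) in the TRIM28 knockdown. APOL6 measured 14.6, 13.9 and 13.8 CPM in those 3 libraries against 2.86, 4.46 and 3.71 CPM in the controls, with replicate 3 beside its partners. The list was assembled with earlier results of these data known, so its direction is a description.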

How the data were processed

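Poly(A) RNA-seq of 12 LNCaP libraries (4 groups of 3) was used, per the labels' protocols. The deposited tables hold raw read counts per gene, which the authors made before depositing them. The submitters' processing notes name GRCh38 and hg38, and no aligner or counter is given. FPKM values deposited beside them equalled count divided by gene length and library total for 33045 of 33045 genes checked (tolerance 0.001). Values carry 12256092 to 15152890 counts per library, and 0 value columns were left without a sample. The labels call the samples biological replicates without naming cultures, so p-values measure only the spread between these samples. Cell line labels read LACAP while the protocol reads LNCaP, the knockdown titles read SH control, genotype labels run on in number across replicates, and groups were taken from the description field.

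Each knockdown was fitted against its own controls with edgeR 4.0.16 in R 4.3.3 (TMM scaling, filterByExpr with a minimum count of 10 and total of 15, robust quasi-likelihood F-test, two-sided), the difference of the effects over all 12 libraries, with Benjamini-Hochberg adjustment over all genes tested and a threshold of 0.05. SE is the log2 fold change divided by the root of F. The fitting code was tested on simulated data. CPM shown is from 1 TMM scaling of all 12 libraries; FPKM compares genes. Members, lists and tests were chosen with earlier results of these data known. Full values are given for members called in the TRIM28 knockdown with a log2 fold change of at least 1 and for the 3 smallest p in each direction and comparison; other lists show up to 3 genes by smallest p, plus genes named after their values were seen (JAK1, RIGI, CGAS, IFNB1). Some genes of the fixed lists are counted but not reported here by name. Alternatives were RLE or library-size scaling, no filter, DESeq2 1.42.0, limma 3.58.1 voom with sample weights, a 12-library fit, a replicate block, and each library left out (genes kept from the full filter). One more, leaving out TRIM28 knockdown replicate 3 with the filter applied anew, was chosen after seeing the data. Intervals from a count of 0 cover counting error only.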

Additional observations from a re-analysis of the deposited data

Results flagged for a closer look

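IRF7 differed between the knockdowns by a test of the difference itself: its log2 fold change was 0.88 lower in the TRIM28 than in the FOXA1 knockdown (−0.88, SE 0.21, edgeR adjusted p = 0.0121). Adjusted p ranged from 0.0011 to 0.0385 over all alternatives. All 3 FOXA1 knockdown libraries were above their controls, while the TRIM28 groups overlapped. The FOXA1 and TRIM28 controls differed for IRF7 by 0.31 (SE 0.14, unadjusted p = 0.0342, edgeR adjusted p = 0.992), and the part of this in the difference was not tested.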

How the results depend on the processing

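No call changed sign under any alternative run. Estimates past no threshold in either fit changed sign in 82 of 1690 pairings of a member with an alternative, such as IFIT1 and OASL in the TRIM28 knockdown without replicate 3. In the FOXA1 knockdown the counts of 8 up and 8 down stayed within 6 to 10 under every setting. In the fit of all 12 libraries the upward count took in OAS1, which the filter removed from the FOXA1 comparison alone. In the TRIM28 knockdown, 4 up became 7 with no count filter, and 1 to 4 when a library was left out (1 without any TRIM28 control). The 1 member down became 6 with no filter, 3 by DESeq2, 7 by limma voom, 7 in the fit of all 12 libraries, 4 with the replicate block and 6 without TRIM28 knockdown replicate 3 with the filter applied anew; leaving out a library gave 0 to 6. The 0 members with a higher signed log2 fold change in the TRIM28 than in the FOXA1 knockdown became 2 with no filter, 1 by DESeq2, 4 by limma voom, 1 with the replicate block and 4 without replicate 3 with the filter applied anew; leaving out a library gave 0 to 4. The cause of these changes was not tested. Shares over all genes moved between settings too. In the TRIM28 knockdown 13.3% fell in the full fit, 6.18% with no filter, 13.7% by DESeq2 and 22.7% by limma voom. It was 18.0% in the fit of all 12 libraries, 13.3% with the replicate block and 23.5% without replicate 3, filter applied anew. With no filter 7.64% rose. Without TRIM28 control replicate 1, 2 or 3, 6.57%, 6.70% and 7.31% rose and 7.08%, 5.83% and 7.56% fell. Over all fits that leave out a library, 6.57% to 21.9% rose and 5.83% to 23.9% fell. In the FOXA1 knockdown 26.1% rose and 26.3% fell in the full fit. Those shares were 11.4% and 11.3% with no filter, and 19.9% and 19.4% in the 12-library fit. Higher signed values took in 2.09% with no filter, 4.06% with the replicate block and 2.84% to 9.28% when a library was left out. They took in 8.64% without TRIM28 knockdown replicate 3, filter applied anew. Replicate numbers did not pair the samples: correlations of deviations between same-numbered libraries were −0.02, 0.01 and 0.10 in the FOXA1 pair and 0.02, −0.08 and 0.00 in the TRIM28 pair. The replicate block gave 8 up and 8 down for FOXA1 and 3 up and 4 down for TRIM28. Depth limits the 8 members with at most 26 counts in any library, and 3 libraries per group cannot give an exact permutation p below 0.10.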
